A study of Mus musculus with 10 samples.

Results

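The 10 genes described here encode transcription factors that specify and maintain the T cell lineage: Tcf7, Lef1, Bcl11b, Gata3, Tox, Satb1, Ets1, Runx1, Runx3 and Zbtb7b. They were chosen by name from the 56893 genes of the deposited count table, and all 10 were found there. Poly(A) RNA of primary mouse splenic T and B cells was sequenced in a CRISPR interference experiment, in which a guide RNA leads a catalytically dead Cas9 to a promoter and represses it. The guides were directed at the promoters of Pou2f1, the gene of the octamer-binding factor Oct-1. The groups were T cells with sgRNA-P1, mock T cells, B cells with sgRNA-P1, B cells with sgRNA-P2 and mock B cells. The mouse strain, the age, the number of animals, the selection of the cells, the dead Cas9 construct and what the mock cells received are unstated in the sources used here. The labels put 2 replicates in each group, but within every group the 2 columns agree more closely than sampling noise allows for separate libraries. They were summed and counted as 1 sample, which leaves 5 libraries, 2 of T cells and 3 of B cells.

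The summed libraries held 28118839 to 71858511 reads. Levels are given in CPM, the share of a gene in the reads of its library after scaling by edgeR's TMM factors. Where genes are compared with each other, levels are given per length, as scaled RPKM, that is CPM divided by the exon length in kb. The median level of 18 T cell marker genes was 374 CPM in both T libraries, against 0.145 to 0.266 CPM in the B libraries. The median of 11 B cell marker genes was 0.749 to 0.826 CPM in the T libraries, against 1163 to 1265 CPM in the B libraries. The cells therefore carried the markers of their labels. Pou2f1, the targeted gene, was at 66.1 CPM in the T library with sgRNA-P1, against 138 CPM in mock T cells. It was at 91.1 CPM in B cells with sgRNA-P1 and at 86.5 CPM in B cells with sgRNA-P2, against 157 CPM in mock B cells. Pou2f1 shares 3007 exon bases with Cd247 on the opposite strand, and the strand setting of the counting is unstated, so its level in T cells is uncertain.

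In the thymus, Notch signalling induces Tcf7 and Gata3, these factors open and activate T cell genes, and Bcl11b then fixes the commitment to the T lineage. Tcf7 and Lef1 belong to the HMG-box factors that bind beta-catenin and Tle corepressors, and Tox is an HMG-box factor needed for the development of CD4 T cells. Runx3 promotes the cytotoxic CD8 fate and Zbtb7b, also called ThPOK, the helper CD4 fate, while Ets1, Runx1 and Satb1 act in several lymphocyte lineages.

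Promoter sequences of the members are shown first, because Oct-1 binds the octamer ATGCAAAT and several of the members bind motifs that can stand in each other's promoters. RefSeq promoters on build GRCm38.p6 were matched by symbol for 8 of the 10 members, with 19 promoters in all. No promoter was matched for Tox and Ets1. The 250 bases before each start site were searched on both strands. The full octamer was in 0 of the 19 member promoters and in 1.60% of the 32851 promoters of the table. Its first 7 letters, ATGCAAA, which overlap the octamer, were in 1 promoter each of Bcl11b and Runx1 and in 4.12% of all promoters. The Runx motif TGTGGT was in 1 promoter each of Runx3 and Zbtb7b and in 14.0% of all promoters. The following stretches are printed in the direction of transcription, and capitals mark ATGCAAA or TGTGGT or the reverse complement of either. That of Bcl11b is the part of the window ahead of its first annotated exon, on the minus strand of chr12:108003603-108003664. Those of Runx1 (minus strand, chr16:92697330-92697579), Runx3 (plus strand, chr4:135120395-135120644) and Zbtb7b (minus strand, chr3:89387672-89387921) are whole windows.
Bcl11b: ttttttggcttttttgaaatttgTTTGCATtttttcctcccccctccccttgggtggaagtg
Runx1: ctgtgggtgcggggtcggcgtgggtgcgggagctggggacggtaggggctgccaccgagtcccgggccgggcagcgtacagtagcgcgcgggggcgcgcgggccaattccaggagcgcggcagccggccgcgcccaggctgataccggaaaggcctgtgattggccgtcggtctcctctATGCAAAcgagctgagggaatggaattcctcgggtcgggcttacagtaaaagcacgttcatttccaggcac
Runx3: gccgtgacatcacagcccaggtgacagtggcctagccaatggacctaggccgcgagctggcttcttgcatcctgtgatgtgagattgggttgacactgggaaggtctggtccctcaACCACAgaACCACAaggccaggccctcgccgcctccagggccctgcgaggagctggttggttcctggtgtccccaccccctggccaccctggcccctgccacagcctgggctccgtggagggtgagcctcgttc
Zbtb7b: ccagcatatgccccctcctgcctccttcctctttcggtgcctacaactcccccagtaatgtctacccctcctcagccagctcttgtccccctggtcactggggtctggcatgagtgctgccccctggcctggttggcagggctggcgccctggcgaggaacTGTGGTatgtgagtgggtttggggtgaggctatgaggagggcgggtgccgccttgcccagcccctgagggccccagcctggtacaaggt
In Runx3 the motif stood in the reverse orientation at 134 and again at 126 bases before the start site, and in Zbtb7b it stood as written at 89 bases before it. The Tcf/Lef motif CTTTGAA was in the Bcl11b promoter and in 4.46% of all promoters. The GATA motif AGATAA was in 0 of the 19 and in 9.99% of all. The Ets motif AGGAAG was in 5 of the 19 member promoters, those of Lef1, Runx1, Satb1 and Zbtb7b, and in 29.5% of all promoters. A match describes letters and not binding. The median GC content of these windows was 64.4% in the member promoters and 52.4% in all promoters. Its part in the motif shares was not tested. The 19 promoters are not independent, since 5 belong to Satb1 and 4 to Lef1. The members had more annotated starts than most genes: 6 of the 8 had more than 1 promoter in the table, against 15.4% of its genes.

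The first question was how the factors divide between T and B cells. Of the 10 members, 9 were higher in T cells, 0 were higher in B cells and Runx1 was not called, at a false discovery rate (FDR) under 0.05 in edgeR's quasi-likelihood test with terms for cell type and guide over the 5 libraries. Of all 17581 genes tested, 33.1% were higher in T cells and 31.1% were higher in B cells. The median difference was 3.69 on the log2 scale among the members and 0.02 among all genes. Between the mock libraries alone, 8 of 10 members were 1.5-fold or more higher in T cells, against 18.6% of the 10804 genes at 5 CPM or more. The members fell into 3 groups: Tcf7, Bcl11b, Gata3, Tox and Lef1 were low or near 0 in B cells, Satb1, Zbtb7b and Ets1 were shared but higher in T cells, and Runx3 and Runx1 were nearly even. In bulk RNA, fewer cells of a type and less RNA per cell cannot be told apart. The test has 2 residual degrees of freedom, and no group has a replicate library. They come from the difference between sgRNA-P1 and sgRNA-P2 in B cells and from any guide difference between the cell types. The p-values therefore measure no spread between replicates, and edgeR also shares variance information between genes. The spread between these libraries may be technical.

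**Figure D1:**
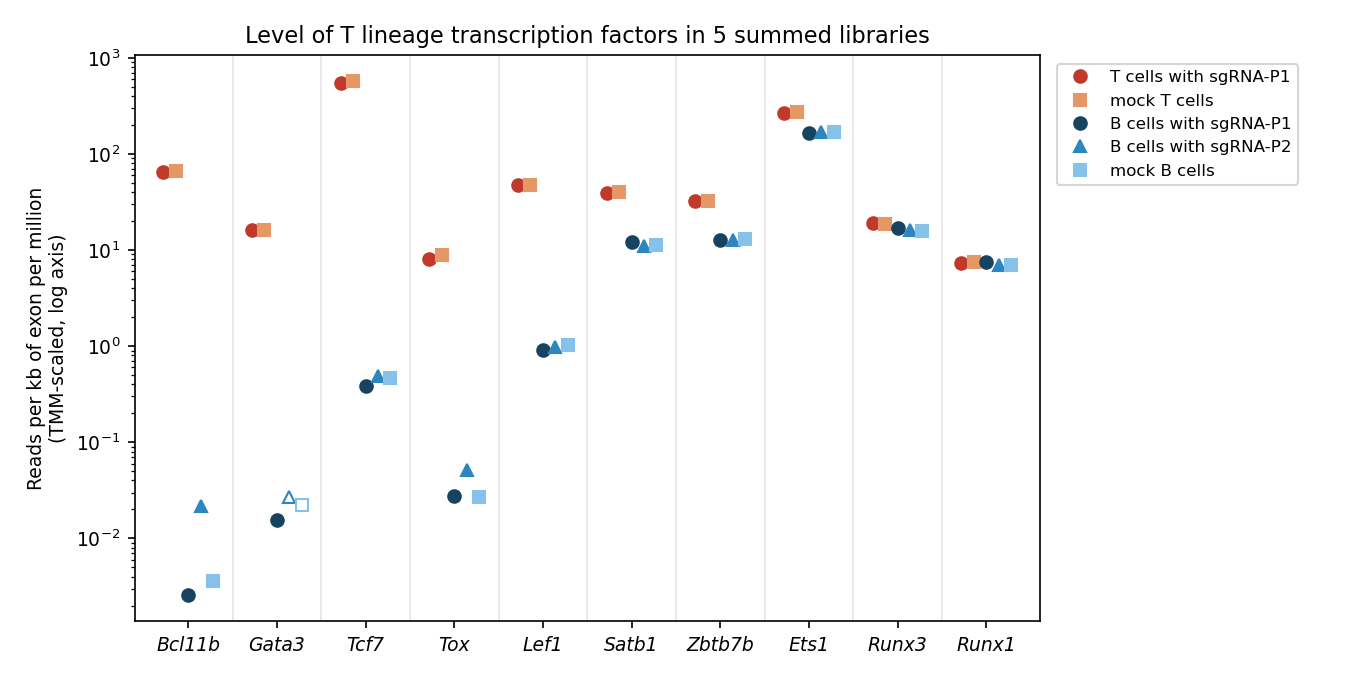
Level of each member per length (scaled RPKM, log axis) in the 5 summed libraries, with 1 point per library; open symbols stand at the floor of 3 reads where a library held 0 reads of the gene. From Bcl11b to Lef1 the T and B libraries lie far apart, from Satb1 to Ets1 they lie apart by less, and for Runx1 they overlap.

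Tcf7, which encodes TCF-1, had the highest per-length level of the members in T cells. It was at 1632 CPM in T cells with sgRNA-P1 and 1734 CPM in mock T cells, against 1.16, 1.49 and 1.42 CPM in B cells with sgRNA-P1, with sgRNA-P2 and mock. Both T libraries lay far above all B libraries. The mock ratio was 1222-fold (95% counting interval 821 to 1907) and the ratio between the sgRNA-P1 libraries was 1405-fold (972 to 2114). These pairs share no library. The fitted log2 difference was 10.29 ± 0.08 (SE; FDR 7.8e-19 by edgeR's quasi-likelihood test). Here and below, an SE from edgeR is the log2 difference divided by the square root of the test's F value. For large differences that rest on few B cell reads it can be too small. DESeq2 gave an SE of 0.13 for the cell type difference of Tcf7. With 541 and 574 RPKM it ranked 49 and 48 among all genes of the T libraries. Tcf7 lies on mm39 chromosome 11, 52143198 to 52174158, on the minus strand, as the deposited table gives it.

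Lef1, the relative of Tcf7 (chromosome 3, 130904120 to 131018005, plus strand), was at 414 and 416 CPM in T cells with sgRNA-P1 and mock T cells. In B cells it was at 8.03 CPM with sgRNA-P1, 8.64 CPM with sgRNA-P2 and 8.96 CPM in mock cells. The T libraries were again all higher, by 46.4-fold between the mock libraries (39.7 to 55.0) and 51.6-fold between the sgRNA-P1 libraries (44.9 to 60.0). The fitted log2 difference was 5.60 ± 0.06 (SE; edgeR FDR 2.8e-18). Per length, Tcf7 exceeded Lef1 by 11.5-fold in T cells with sgRNA-P1 and 12.1-fold in mock T cells. In the B libraries the order was the reverse, and Lef1 exceeded Tcf7 by 2.37-, 1.99- and 2.17-fold. Lef1 was thus the most abundant of the 5 low members in B cells, at 243 to 387 reads per library. The 18 T cell markers ranged there from 0 to 181 CPM, with medians of 0.145 to 0.266 CPM, and their part in this level was not tested. Lef1 shares 1208 exon bases with the opposite-strand gene Lef1os1, which held 90 and 194 reads in the T libraries and 0 in the B libraries.

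Bcl11b, the zinc finger factor of T lineage commitment (chromosome 12, 107876662 to 107969861, minus strand), was at 532 and 537 CPM in the T libraries with sgRNA-P1 and mock. The B libraries held 1, 5 and 1 reads of it, with sgRNA-P1, with sgRNA-P2 and mock. The mock ratio was 18165-fold from a single B cell read without a prior, and the log2 ratio with the prior of 1 read was 13.15. The counting interval is on read pairs, where that single read counts as 0. It therefore had a lower bound of 2462-fold and no upper bound. Gata3, a zinc finger factor needed throughout T cell development (chromosome 2, 9861889 to 9894845, minus strand), was at 64.2 and 64.0 CPM in the same T libraries. The B libraries held 3 reads with sgRNA-P1, 0 with sgRNA-P2 and 0 in mock cells. The lower counting bound of the mock ratio was 293-fold, and there was no upper bound. Tox (chromosome 4, 6686353 to 6991557, minus strand) was at 60.9 CPM in T cells with sgRNA-P1 and 66.8 CPM in mock T cells, against 0.207, 0.391 and 0.207 CPM in B cells with sgRNA-P1, with sgRNA-P2 and mock. Its mock ratio was 323-fold (129 to 1828). All 3 genes were called higher in T cells by edgeR's quasi-likelihood test, with FDR 2.4e-18 for Bcl11b, 1.0e-15 for Gata3 and 6.3e-16 for Tox.

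**Figure D2:**
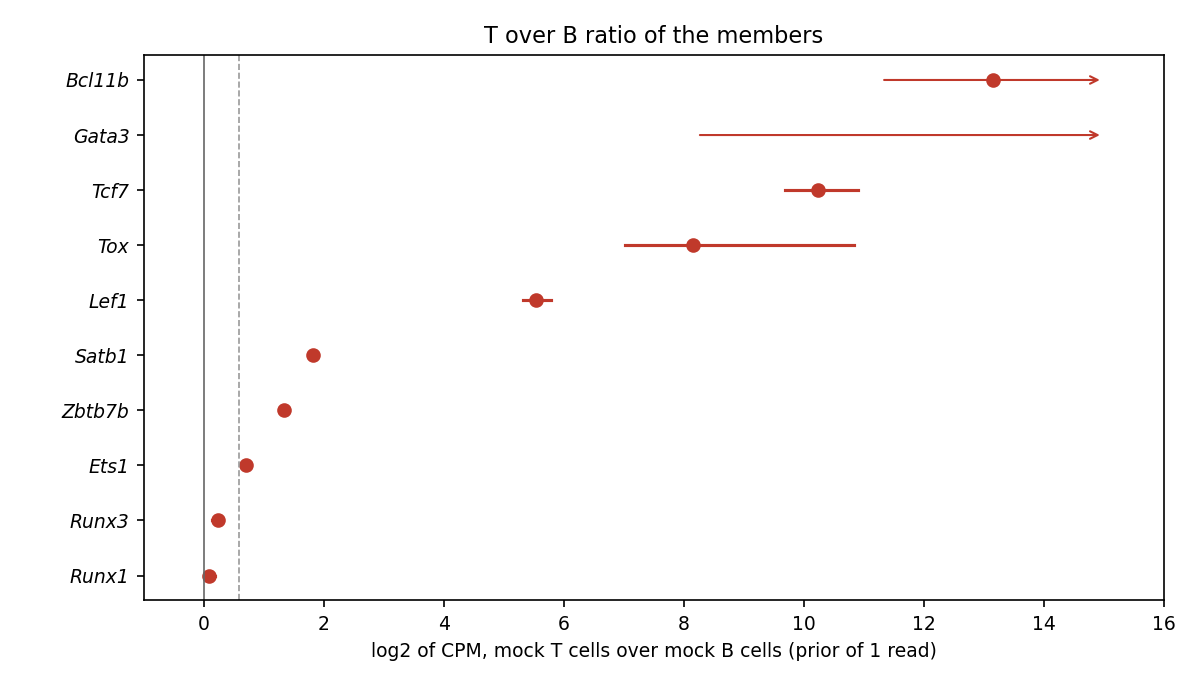
Ratio of each member in mock T cells over mock B cells, on the log2 scale, with 95% counting intervals (lines, shorter than the points for the last 5 genes). An arrow marks an interval without an upper bound, Gata3 has no point because mock B cells held 0 reads of it, and the dashed line is 1.5-fold; 8 members lie beyond it.

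Satb1 organises chromatin loops in lymphocytes (chromosome 17, 52043215 to 52140318, minus strand). It was at 743 and 759 CPM in T cells with sgRNA-P1 and mock T cells, against 232, 211 and 214 CPM in B cells with sgRNA-P1, with sgRNA-P2 and mock. The groups did not overlap, and the mock ratio was 3.54-fold (3.42 to 3.67). The fitted log2 difference was 1.78 ± 0.05 (SE; edgeR FDR 2.9e-13). Zbtb7b, the CD4 helper fate factor (chromosome 3, 89284951 to 89302083, minus strand), was at 181 and 183 CPM in the T libraries with sgRNA-P1 and mock, against 70.3, 70.4 and 72.7 CPM in the B libraries with sgRNA-P1, with sgRNA-P2 and mock. Its mock ratio was 2.51-fold (2.37 to 2.68), with a fitted log2 difference of 1.35 ± 0.05 (SE; edgeR FDR 2.2e-12). The helper fate factor was thus present in all B libraries as well. Zbtb7b shares 466 exon bases with the opposite-strand gene Gm15417, which held 84 and 134 reads in these T libraries and 13 to 29 reads in the B libraries.

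Ets1, a survival and differentiation factor of both lineages (chromosome 9, 32547517 to 32669116, plus strand), was the most abundant member in B cells. It was at 2271 and 2308 CPM in T cells with sgRNA-P1 and mock T cells, against 1407, 1420 and 1426 CPM in B cells with sgRNA-P1, with sgRNA-P2 and mock. The T libraries were all higher, by 1.62-fold between the mock libraries (1.60 to 1.64) and 1.61-fold between the sgRNA-P1 libraries. The fitted log2 difference was 0.69 ± 0.05 (SE; edgeR FDR 8.7e-09). Ets1 took 37.3% and 36.9% of all member reads in the T libraries with sgRNA-P1 and mock, against 74.3%, 75.7% and 75.5% in the B libraries with sgRNA-P1, with sgRNA-P2 and mock. Subtracting a trend with exon length and GC content lowered the mock log2 difference to 0.54, which is below the 1.5-fold line and leaves 7 of 10 members past it.

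Runx3 and Runx1 bind DNA with the shared partner Cbfb. Runx3, which promotes the cytotoxic fate (chromosome 4, 134847963 to 134905301, plus strand), was at 95.7 and 92.7 CPM in T cells with sgRNA-P1 and mock T cells, against 84.8, 80.8 and 78.9 CPM in B cells with sgRNA-P1, with sgRNA-P2 and mock. The groups did not overlap, but the fitted log2 difference was only 0.22 ± 0.05 (SE; edgeR FDR 0.0017). Its mock log2 difference of 0.23 became 0.06 after subtraction of the length and GC trend. Runx1, a factor of blood formation used in many lineages (chromosome 16, 92398354 to 92623037, minus strand), was at 87.1 and 90.2 CPM in the T libraries with sgRNA-P1 and mock, against 90.9, 83.1 and 84.9 CPM in the B libraries with sgRNA-P1, with sgRNA-P2 and mock. Here the groups overlapped, and the fitted log2 difference was 0.04 ± 0.06 (SE; edgeR FDR 0.58). The T over B ratio of Runx1 was 1.06-fold between the mock libraries (0.998 to 1.13) and 0.959-fold between the sgRNA-P1 libraries (0.899 to 1.02).

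Several members are also expressed by natural killer and innate lymphoid cells, Gata3, Runx3 and Tcf7 among them. Of 9 marker genes of those cells, 7 were tested, and T cells share some of them. All 7 were higher in T cells in edgeR's quasi-likelihood test, where 33.1% of all genes were. Log2 differences were 9.19 for Nkg7, 8.36 for Rora, 6.97 for Il1rl1 and 6.15 for Klrk1. Those of Gzma, Klrb1c and Prf1 were 3.75, 3.07 and 2.60. The summed level of the 9 genes was 198 and 197 CPM in T cells with sgRNA-P1 and mock T cells, against 7.54 to 7.68 CPM in the B libraries. Ncr1 and Klra8 were not among the tested genes. The defining natural killer gene Ncr1 was near 0 in all groups, with 8 and 16 reads in these T libraries and 3 to 5 reads in the B libraries. Klra8 was at most 0.107 CPM. Summed myeloid markers stood at 73.0 and 74.6 CPM in T cells with sgRNA-P1 and mock T cells, against 21.3 to 22.9 CPM in the B libraries, and Ly6c2, which T cells also express, made up 62.8 and 65.4 CPM of the T cell sums. Summed dendritic cell markers were at 5.80 to 6.39 CPM in T libraries and 7.33 to 9.05 CPM in B libraries, and erythroid and platelet markers at 0.624 to 0.851 CPM in T libraries and 1.43 to 2.07 CPM in B libraries. Plasma cell markers summed to 66.6 and 68.2 CPM in these T libraries, against 193 to 204 CPM in the B libraries. The part of these cells in the members' values was not tested.

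The order of per-length levels in both T libraries was Tcf7, Ets1, Bcl11b, Lef1, Satb1, Zbtb7b, Runx3, Gata3, Tox and Runx1. In mock T cells these levels were 574, 272, 66.2, 47.3, 39.9, 32.7, 18.5, 16.1, 8.78 and 7.50 RPKM. The T libraries with and without the guide differed by at most 1.10-fold for each member, and Tox and Runx1, at 8.01 and 7.25 RPKM with sgRNA-P1 and 8.78 and 7.50 RPKM in mock cells, lay little further apart than this. In all B libraries Ets1 led, followed by Runx3, Zbtb7b, Satb1, Runx1, Lef1, Tcf7 and Tox, with 168, 15.8, 13.0, 11.3, 7.06, 1.02, 0.470 and 0.0272 RPKM in mock B cells. Together the members took 0.617% and 0.627% of all reads in the T libraries with sgRNA-P1 and mock, against 0.186%, 0.188% and 0.189% in the B libraries with sgRNA-P1, with sgRNA-P2 and mock.

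Relatives of the members were called in both directions. Of 22 relatives, 16 were tested, of which 6 were higher in T cells, 4 were higher in B cells and 6 were not called (edgeR's quasi-likelihood test, FDR under 0.05). Of all genes, 33.1% were higher and 31.1% lower in T cells, so these counts are near the share over the whole table. Their median log2 difference was 0.08, against 0.02 over all genes. Bcl11a, the zinc finger relative of Bcl11b that B cell development needs, had the opposite pattern to it. Bcl11a was at 0 and 0.153 CPM in T cells with sgRNA-P1 and mock T cells, against 375, 350 and 338 CPM in B cells with sgRNA-P1, with sgRNA-P2 and mock. Per length, Bcl11b was at 66.2 RPKM in mock T cells and Bcl11a at 25.6 RPKM in mock B cells. Zbtb7a, a relative of Zbtb7b, was at 97.8 and 105 CPM in the T libraries with sgRNA-P1 and mock, against 158, 154 and 159 CPM in the B libraries with sgRNA-P1, with sgRNA-P2 and mock. Per length, Zbtb7b exceeded Zbtb7a by 2.25- and 2.11-fold in these T libraries, and Zbtb7a exceeded Zbtb7b by 1.85-, 1.80- and 1.80-fold in these B libraries. The Ets factor Fli1 was lower in T cells, with a log2 difference of -1.22 ± 0.07 (SE; edgeR FDR 7.9e-10). The Ets factors Elf1, Elk4 and Gabpa were not called, with log2 differences of 0.11, 0.07 and -0.07.

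**Figure D3:**
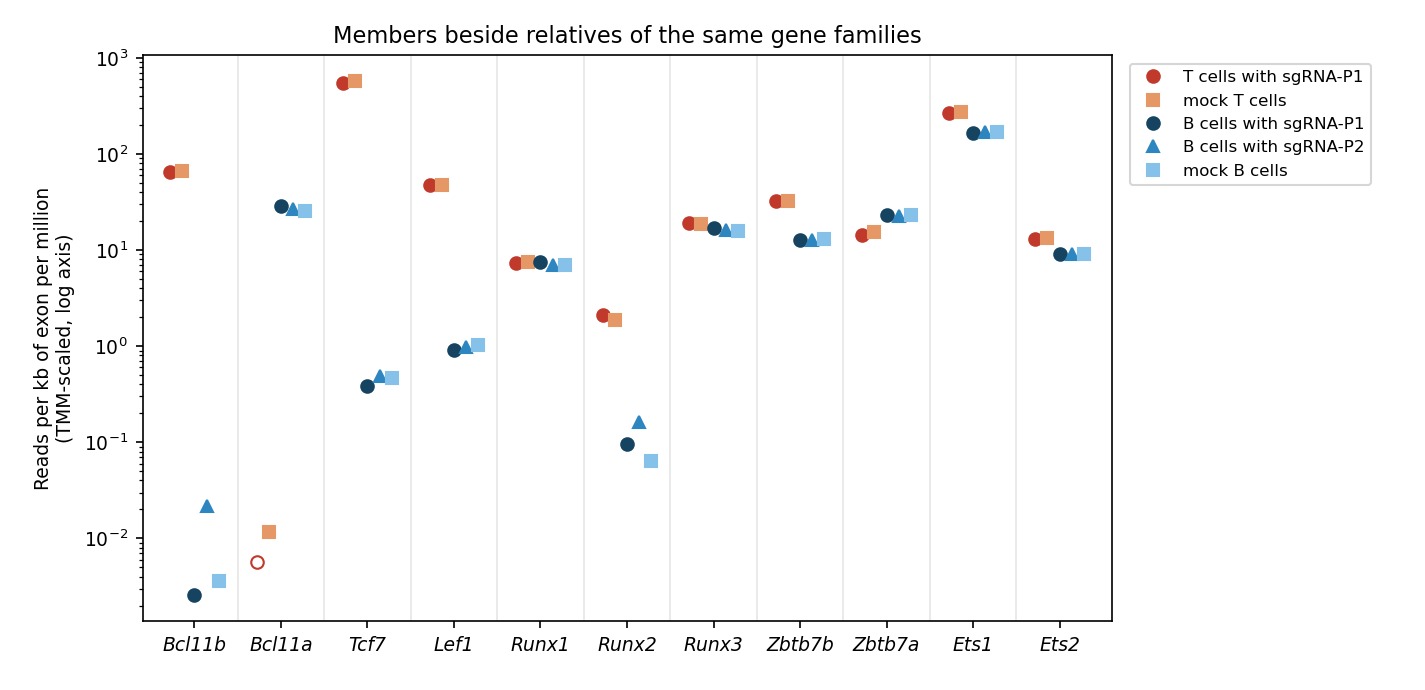
Level per length (scaled RPKM, log axis) of members beside relatives of their families, in the 5 summed libraries; the open symbol stands at the floor of 3 reads where a library held 0 reads. Bcl11b and Bcl11a have opposite patterns, and Zbtb7b and Zbtb7a change order between T and B libraries.

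Among the relatives higher in T cells were Runx2, Ets2, Tcf7l1 and Tox2, chosen after their values were seen. Runx2, a factor best known from bone, was at 18.7 and 16.4 CPM in T cells with sgRNA-P1 and mock T cells, against 0.851, 1.42 and 0.562 CPM in B cells with sgRNA-P1, with sgRNA-P2 and mock, and the groups did not overlap. Its log2 difference was 4.33 ± 0.18 (SE; edgeR FDR 1.7e-11). Ets2 was higher in T cells by 0.52 ± 0.05 (SE; edgeR FDR 7.9e-07) on the log2 scale. Tcf7l1, a relative of Tcf7, was at 1.88 and 2.09 CPM and Tox2, a relative of Tox, at 6.19 and 5.67 CPM in these T libraries, and each was at or below 0.213 CPM in the B libraries.

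Partners and corepressors of the members were mostly expressed in both cell types. All 18 were tested, 11 were higher in T cells, 2 were lower and 5 were not called in edgeR's quasi-likelihood test, where 33.1% of all genes were higher and 31.1% lower. Their median log2 difference was 0.19. Tle5, a short member of the Tle corepressor family, was at 379 and 399 CPM in T cells with sgRNA-P1 and mock T cells, against 174, 192 and 188 CPM in B cells with sgRNA-P1, with sgRNA-P2 and mock. Ncor1, a nuclear corepressor, was higher by 0.52 ± 0.06 and Chd4, the remodelling enzyme of the NuRD complex, by 0.23 ± 0.05 on the log2 scale (SE; edgeR FDR 1.2e-06 and 0.00067). The histone deacetylase Hdac1 was lower in T cells, at -0.18 ± 0.05 (SE; edgeR FDR 0.0044). Cbfb, the partner of Runx1 and Runx3, had a log2 difference of 0.13 ± 0.05 (SE; edgeR FDR 0.048), close to the threshold. Mta2, another NuRD subunit, was not called at 0.08.

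Other regulators of the T lineage were called in both directions. Of 20 genes tested, 11 were higher in T cells, 7 were lower and 2 were not called (edgeR's quasi-likelihood test), with a median log2 difference of 0.21. Over all genes 33.1% were higher and 31.1% lower, so the count of lower genes is near the share over the whole table. Id2, an inhibitor of E proteins, was at 161 and 163 CPM in T cells with sgRNA-P1 and mock T cells, against 8.86, 8.46 and 8.34 CPM in B cells with sgRNA-P1, with sgRNA-P2 and mock. The E protein gene Tcf3, which the product of Id2 opposes, was lower in T cells by -1.17 ± 0.05 on the log2 scale (SE; edgeR FDR 1.7e-11). Stat5b, a transducer of cytokine signals, was higher by 1.18 and the zinc finger factor Ikzf1 by 0.60, while Klf2, a factor of lymphocyte quiescence and migration, was lower by -0.39. Dtx1, a regulator of Notch signalling, was higher by 0.14. Genes of the Notch pathway in this list are named after their values were seen. Rbpj, its DNA-binding factor, was not called, with a log2 difference of 0.14 (edgeR FDR 0.054). Notch1 was at 277 and 288 CPM in T cells with sgRNA-P1 and mock T cells, against 34.5, 31.2 and 33.9 CPM in B cells with sgRNA-P1, with sgRNA-P2 and mock. Notch2, needed for marginal zone B cells, was at 102 and 103 CPM in the T libraries with sgRNA-P1 and mock, against 574, 577 and 567 CPM in the B libraries with sgRNA-P1, with sgRNA-P2 and mock. Hes1, a Notch target, was at 0.275 and 0.361 CPM in these T libraries, against 42.3, 42.2 and 43.6 CPM in these B libraries.

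Genes that set the helper, regulatory and cytotoxic fates were tested in full. Of 11 such genes, 9 were higher in T cells, where 33.1% of all genes were, Bcl6 was lower and Stat6 was not called, in edgeR's quasi-likelihood test, with a median log2 difference of 1.09. Foxp3, the factor of regulatory T cells, was at 91.0 and 97.2 CPM in T cells with sgRNA-P1 and mock T cells, against 0.685, 0.960 and 0.148 CPM in B cells with sgRNA-P1, with sgRNA-P2 and mock. Maf was higher by 3.41, Stat4, the transducer of interleukin-12 signals, by 0.93 and Patz1 by 0.16 on the log2 scale. Bcl6, the germinal centre factor, was lower in T cells by -1.97. Zbtb7b and Runx3 are known for opposite control of the coreceptors of these fates. The per-length ratio of Cd4 to Cd8a, named after their values were seen, was 1.47 and 1.49 in the T libraries with sgRNA-P1 and mock. The ratio of Zbtb7b to Runx3 was 1.69 and 1.77 in the same libraries. Transcripts of both coreceptors were present, and neither ratio is a count of cells.

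Genes known to be activated by members in T cells were read from a list of 23 genes in the table. Of 22 tested, 20 were higher in T cells, 1 was lower and 1 was not called (edgeR's quasi-likelihood test). Over all genes 33.1% were higher and 31.1% lower. Trac, the constant gene of the T cell receptor alpha chain, was at 588 and 591 CPM in T cells with sgRNA-P1 and mock T cells, against 0.353, 0.391 and 0.207 CPM in B cells with sgRNA-P1, with sgRNA-P2 and mock. Cd8b1 was at 285 and 290 CPM in these T libraries, against 0.0830, 0.107 and 0.0887 CPM in these B libraries. Lck, the kinase bound to CD4 and CD8, was at 773 and 803 CPM in these T libraries, against 45.2, 46.8 and 46.1 CPM in these B libraries. Ccr7, a lymph node homing receptor, was higher in T cells by only 0.33 ± 0.05 on the log2 scale (SE; edgeR FDR 3.7e-05). The constant genes Trbc1 and Trbc2 are near-identical copies, so their split is uncertain. The gene lower in T cells was Rag1, named after its values were seen. Rag1 was listed at 0 CPM in both T libraries and at 0.680 CPM or less in the B libraries.

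All 8 factors of the B lineage were lower in T cells in edgeR's quasi-likelihood test, where 31.1% of all genes were. Pax5, the factor of B cell commitment, was at 0.376 and 0.735 CPM in T cells with sgRNA-P1 and mock T cells, against 1551, 1464 and 1477 CPM in B cells with sgRNA-P1, with sgRNA-P2 and mock. Spib and Ciita were at most 0.751 CPM in the T libraries, while Irf8 was at 14.8 and 14.4 CPM, Pou2af1 at 23.8 and 20.8 CPM and Pou2f2 at 59.0 and 59.0 CPM in T cells with sgRNA-P1 and mock T cells.

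The genes whose pattern was most like the members with the largest T over B ratios were sought by Euclidean distance of log2(RPKM + 0.1) over the 5 libraries. Nearest to Bcl11b were the T cell receptor segments Trbv19, Traj4 and Trbv20, at distances of 0.300, 0.304 and 0.318. Nearest to Gata3 were Trav5-4, Ramp1 and Pdlim4, at 0.220, 0.248 and 0.268. Nearest to Tcf7 were Trac and Lat, at 0.889 and 2.49. Trac was at 629 and 632 RPKM in T cells with sgRNA-P1 and mock T cells, beside 541 and 574 RPKM of Tcf7, while Lat was already at 174 and 181 RPKM.

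The second question was whether the members moved when Pou2f1 was repressed. With both guides pooled as 1 term against mock, 0 of 10 members were called in edgeR's quasi-likelihood test over the 5 libraries, and 0 had an unadjusted p under 0.05. Among all 17581 genes, 0.0284% were called and 439 had an unadjusted p under 0.05. DESeq2's Wald test also called 0 members. Tcf7, Bcl11b, Gata3 and Tox were under 5 CPM in all B libraries, so their guide term rests mostly on the T cell pair. That pair holds sgRNA-P1 only, so the fit says little about sgRNA-P2 for these genes. The smallest unadjusted p of a member was 0.23, for Tcf7, and the members' median log2 change was -0.01, as was the median of all genes. Pou2f1 itself fell, with a log2 change of -0.92 ± 0.06 (SE; edgeR FDR 6.7e-06).

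**Figure D4:**
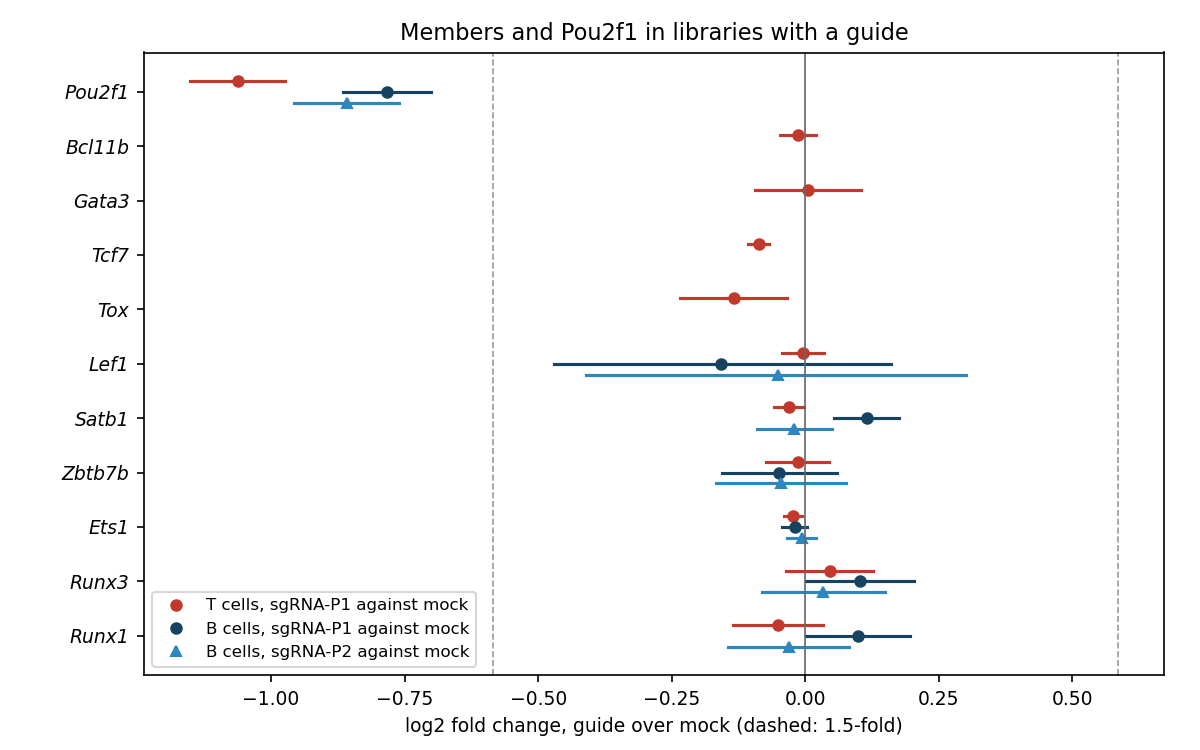
Log2 fold change of Pou2f1 and the members in each library with a guide over the matching mock library, with 95% counting intervals (lines); members under 5 CPM in B cells are not drawn there. Pou2f1 lies beyond 1.5-fold (dashed) in all 3 comparisons, and no member does.

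The single comparisons have 1 library a group and so no replicate check, and their intervals cover counting error only. In T cells, 0 of the 10 members were 1.5-fold or more apart between sgRNA-P1 and mock, where 0.11% of 10007 genes were. The values ran from -0.13 for Tox to 0.05 for Runx3 on the log2 scale, with a median of -0.02, equal to that of all genes. The intervals did not reach 0 for Tox (-0.23 to -0.03), Tcf7 (-0.11 to -0.07), Satb1 (-0.06 to -0.00) and Ets1 (-0.04 to -0.01). The last 3 are among the most deeply counted members, and the middle 90% of all genes ran from -0.16 to 0.15. Tcf7 in T cells with sgRNA-P1 was at 94.1% and Tox at 91.2% of the mock level. The intervals of Lef1, Bcl11b, Gata3, Runx1, Runx3 and Zbtb7b reached 0, and the widest of these 6, that of Gata3, ran from -0.09 to 0.10.

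In B cells, Tcf7, Bcl11b, Gata3 and Tox were under 5 CPM, which left 6 members to compare. With sgRNA-P1, 0 of 6 were 1.5-fold or more apart, where 0.735% of 10062 genes were, and with sgRNA-P2, 0 of 6, where 0.278% of 10061 genes were. Satb1 was at 232 CPM with sgRNA-P1, against 214 CPM in mock B cells, a log2 change of 0.12 (0.05 to 0.18). Runx1 and Runx3 with sgRNA-P1 were at 0.10 each, with lower bounds that round to 0.00. Fold changes in this comparison went with the GC content of the transcripts (Spearman correlation -0.50 across 9703 genes, which are not independent), so the values were computed again with that trend and the trend with length subtracted. Satb1 was then at 0.03, Runx1 at 0.05, Runx3 at 0.17 and Lef1 at -0.20 on the log2 scale. With sgRNA-P2 the intervals of all 6 reached 0: Satb1 was at -0.02 (-0.09 to 0.05), Runx1 at -0.03, Runx3 at 0.03, Ets1 at -0.01, Zbtb7b at -0.04 and Lef1 at -0.05. Lef1 was counted least, and its intervals of -0.47 to 0.16 with sgRNA-P1 and -0.41 to 0.30 with sgRNA-P2 could not show a change smaller than these. Both B cell comparisons share the mock library. Of the Bcl11b and Runx1 promoters with the first 7 letters of the octamer, shown above, Bcl11b was at -0.01 (-0.05 to 0.02) in T cells, and Runx1 at -0.05, 0.10 and -0.03 in T cells with sgRNA-P1, B cells with sgRNA-P1 and B cells with sgRNA-P2.

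No gene of the lists of relatives, partners, other regulators, fate regulators and target genes was called by guide in edgeR's quasi-likelihood test, where 0.0284% of all genes were, and 0 were 1.5-fold or more apart at 5 CPM or more in any of the 3 guide comparisons. Their median log2 changes in T cells with sgRNA-P1 were -0.04 for relatives, -0.04 for partners, -0.02 for other regulators, -0.03 for fate regulators and -0.01 for target genes, against -0.02 for all genes.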

How the data were processed

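The values used are whole-number counts that the authors deposited, in 1 featureCounts-style table with exon lengths. HISAT2, featureCounts and the builds mm39 and hg38 are named in the submitters' processing notes. The strand setting, the annotation release and the handling of reads with several matches are unstated in the sources used here.

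In each group all 20942 to 23786 genes with reads matched, within 1 read, a single count divided in a fixed proportion, with a mean chi-square per gene of 0.00229 to 0.00283. The columns were therefore summed, with no paired design. Sums were scaled by TMM factors of 0.982 to 1.01. The model was edgeR 4.0.16's quasi-likelihood test (R 4.3.3) with cell type and guide as terms and Benjamini-Hochberg adjustment over all genes tested, at an FDR of 0.05. Single comparisons used log2 ratios with a prior of 1 read, a size rule of 1.5-fold at 5 CPM or more in the higher group, and exact conditional 95% intervals on the reads divided by 2, since most low totals (72.0 to 74.8%) were even, as counting both reads of a pair gives. Ratios given as folds or percentages had no prior, and an odd read was dropped when reads were divided by 2. Intervals and the floor of 3 reads cover counting error only, since no molecular identifiers are named.

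Alternatives were DESeq2 1.42.0, other scalings, filters, priors, each library or column left out, and a length and GC trend (mgcv 1.9.3) from GENCODE transcripts on GRCm38, used for no coordinate. Promoters came from RefSeq on GRCm38.p6. Members and lists were chosen with earlier results of these data known. Of each other list, up to 6 genes with the highest per-length mock level were named, with any past the size rule in a guide comparison. Some genes that the rules take are not reported here. Genes named outside it were chosen after their values were seen, the marker genes Ncr1, Klra8 and Ly6c2 included.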

Additional observations from a re-analysis of the deposited data

Results flagged for a closer look

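The Ets factor Elf1 and the corepressor Ncor1 had values of opposite sign in T and B cells with a guide, and neither was called by guide (edgeR's quasi-likelihood test). Elf1 had a log2 change of -0.0408 (95% counting interval -0.08 to -0.00) in T cells with sgRNA-P1 against mock, while in B cells it was at 0.09 (0.04 to 0.13) with sgRNA-P1 and 0.06 (0.00 to 0.11) with sgRNA-P2. Ncor1 had a log2 change of -0.0600 (-0.09 to -0.03) in T cells with sgRNA-P1, while in B cells it was at 0.17 (0.13 to 0.22) with sgRNA-P1 and 0.06 (0.01 to 0.11) with sgRNA-P2. Both were looked at again because no counting interval reached 0 and the sign differed between the cell types. They came from a screen by this rule of all listed genes at 5 CPM or more in each guide comparison. The GC trend of B cells with sgRNA-P1 (Spearman correlation -0.50) was not subtracted from these values. The difference was not tested, since each group is 1 library, and the B cell comparisons share the mock library. No change reached 1.5-fold, and the middle 90% of all genes ran from -0.16 to 0.15 in T cells and from -0.27 to 0.27 in B cells with sgRNA-P1.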

How the results depend on the processing

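No paired analysis was possible because the 2 columns of each group are 1 library divided in a fixed proportion. All 67 counts of members recomputed under the alternatives stayed within 1.5 times the main count: 9 members called by cell type and 0 called by guide in every refit, DESeq2 and each left-out library included. These are not 67 separate checks. Where the main count was 0, the rule held only if the count was 0 again. Leaving out a column drops part of 1 library and no replicate. The fit with guide alone had standard errors of up to 4.17 for members and called 0 genes over the whole table. The fit of B cells alone did not test Bcl11b, Gata3 and Tox. Under the size rule, 8 members stayed apart between mock T and mock B cells in all alternatives but the length and GC trend. That trend left 7. The FDR of Runx3 by cell type (edgeR's quasi-likelihood test) ranged from 7.6e-05 to 0.043 with a library left out. Of 224 recomputed single comparisons of members, 8 moved by more than their counting interval, and none reversed beyond it. With the trend subtracted, the T over B log2 ratio of Zbtb7b between mock libraries was 1.06 in place of 1.33. The number of genes called by guide over the whole table depended most on the setting: 3 higher and 2 lower in the main fit, 20 higher and 12 lower without a filter on low counts, 0 and 1 with a 5 CPM filter or DESeq2 size factors, 0 and 2 with total reads, 0 and 0 with guide as the only term, and 15 higher and 5 lower without B sgRNA-P2. In B cells alone, an alternative chosen after seeing the data, 3 genes were higher and 5 were lower. Depth limits the B cell values of Tcf7, Bcl11b, Gata3 and Tox, which had 0 to 56 reads a library.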

Other observations

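Beside the members, 3 further regulators, named after their values were seen, were present in T cells and at or near 0 in B cells. Eomes, a factor of memory and cytotoxic T cells, was at 31.8 and 32.5 CPM in T cells with sgRNA-P1 and mock T cells, against 0 reads in all 3 B libraries. Ikzf2, the Helios gene, was at 162 and 160 CPM in these T libraries, against 0.104, 0.107 and 0 CPM in the B libraries with sgRNA-P1, with sgRNA-P2 and mock. Gata1, the erythroid relative of Gata3, was at 7.54 and 9.05 CPM in T cells with sgRNA-P1 and mock T cells and had 0 reads in all 3 B libraries. In the same T libraries 3 to 4 of 8 erythroid and platelet markers had 0 reads, and their sum was 0.624 to 0.851 CPM.

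Factors of both lineages were also lower in T cells without being restricted to B cells. Foxp1, a factor of naive lymphocytes, was at 296 and 298 CPM in T cells with sgRNA-P1 and mock T cells, against 564, 531 and 504 CPM in B cells with sgRNA-P1, with sgRNA-P2 and mock. Bach2, a repressor of effector differentiation, was at 155 and 157 CPM in these T libraries, against 300, 293 and 290 CPM in these B libraries.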
